A study of Mus musculus with 24 samples.

Results

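The coagulation genes described here are 10 genes of the clotting system, found by name among the 25361 genes measured in embryonic mouse liver. They are prothrombin (*F2*), factors V (*F5*), VII (*F7*), IX (*F9*) and X (*F10*), the fibrinogen chains (*Fga*, *Fgb*, *Fgg*), antithrombin (*Serpinc1*) and protein C (*Proc*). The genes were chosen by name and not by their values, although earlier results of these data were known.

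RNA was measured in 24 libraries of liver cells from embryos at embryonic day (E) 12.5, with 3 embryos per group. Each liver was split by beads against the endothelial surface protein CD146 into liver sinusoidal endothelial cells (LSECs, CD146+) and the remaining cells (non-EC cells), so that 12 libraries came from each fraction. The 4 genotypes were Cre-negative controls and 3 mutants that carried *VE-cadherin-Cre*. The floxed alleles were *Chd4* fl/fl with *Brg1* fl/+ in *Chd4-ECko* embryos and *Brg1* fl/fl with *Chd4* fl/+ in *Brg1-ECko* embryos, and in the double mutant, *Brg1/Chd4-ECdko*, both genes were fl/fl. CHD4 and BRG1 are ATPases that remodel chromatin. By the breeding scheme the controls also carry at least 1 floxed allele of each gene, and the single mutants are heterozygous for the other gene. *VE-cadherin-Cre* is active in endothelial cells and also in some blood cells. All livers were digested with transcription inhibitors. The comparisons ask how far the LSEC fraction carries transcripts of clotting factors, and whether endothelial loss of the remodelers is accompanied by other levels of them in either fraction.

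Most clotting factors are plasma proteins made by hepatoblasts and hepatocytes. Vitamin K-dependent proteases (prothrombin and factors VII, IX and X) circulate as inactive precursors and are cleaved in turn on membranes. Factor V is the cofactor of factor Xa, and thrombin finally turns fibrinogen, built of pairs of its alpha, beta and gamma chains, into fibrin. Antithrombin inhibits thrombin and factor Xa, and activated protein C degrades factors Va and VIIIa. Endothelial cells contribute the receptors that help protein C (thrombomodulin and EPCR), tissue factor pathway inhibitor and factor VIII.

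Values are TPM, that is, reads per transcript length scaled to the same total in each library, so the read depth behind a value is unknown and levels may be compared between genes. An LSEC library held 12746 to 13219 genes at 1 TPM or more, and a non-EC library 11450 to 11973. All 10 endothelial markers were higher in control LSECs than in control non-EC cells (median log2 fold change 5.07), and 10 of 12 hepatoblast markers were differentially expressed genes (DEGs, defined below) with lower values in LSECs, although none of the 12 was below 1 TPM in all LSEC libraries. Megakaryocyte (8 of 8) and erythroid (8 of 8) markers were also lower in control LSECs, while macrophage (6 of 7 tested) and stellate cell (7 of 7) markers were higher. Transcript levels over the whole gene do not show the deletion of floxed exons. *Chd4* lay at 246 to 285 TPM in control LSECs and 168 to 252 TPM in *Chd4-ECko* LSECs, and *Smarca4* (*Brg1*) at 134 to 161 TPM in control LSECs and 111 to 157 TPM in *Brg1-ECko* LSECs. In double mutant LSECs, *Chd4* lay at 242 to 256 TPM and *Smarca4* at 117 to 151 TPM, and both ranges overlapped with control.

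One library stood apart before any test. *Brg1-ECko* LSEC replicate 1 held 1895 TPM of the 10 coagulation genes together, against 245 to 620 TPM in the other 11 LSEC libraries and 1049 to 2514 TPM in the non-EC libraries. Its 12 hepatoblast markers summed to 29755 TPM, against at most 8559 TPM in any other LSEC library, and its endothelial markers to 945 TPM, the lowest LSEC sum, with a next value of 1237 TPM. The main tests, sums and correlations that rest on *Brg1-ECko* LSECs are therefore given with and without this library. Other values are given with it only, among them the hepatoblast marker medians, the centred medians, the fibrinogen shares and the paired interaction count.

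The fibrinogen genes are neighbours. On mouse chromosome 3 (GRCm39, GENCODE M39), *Fgg* lies at chr3:82915030-82922363 and *Fga* at chr3:82933383-82940934 on the forward strand, and *Fgb* at chr3:82947448-82957170 on the reverse strand. The 3 genes span 42141 bases, with 11019 bases between *Fgg* and *Fga* and 6513 between *Fga* and *Fgb*.

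The fibrinogen chains varied together between libraries, as most members did. The 250 bases before the RefSeq start of each chain are shown, 5′ to 3′ on the strand of the gene. The sequences are RefSeq's of GRCm38.p6 and each matched GRCm39 chromosome 3 exactly once, at chr3:82933210-82933459 for *Fga*, chr3:82957171-82957420 (reverse strand) for *Fgb* and chr3:82914781-82915030 for *Fgg*. GENCODE places an earlier *Fga* start inside this window. No letters are capitalised, since none of the motifs below was found in these 3 windows.
Fga: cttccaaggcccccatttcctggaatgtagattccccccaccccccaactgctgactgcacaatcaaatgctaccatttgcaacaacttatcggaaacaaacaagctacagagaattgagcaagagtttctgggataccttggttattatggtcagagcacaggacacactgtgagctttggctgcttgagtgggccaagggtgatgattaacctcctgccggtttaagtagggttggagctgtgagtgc
Fgb: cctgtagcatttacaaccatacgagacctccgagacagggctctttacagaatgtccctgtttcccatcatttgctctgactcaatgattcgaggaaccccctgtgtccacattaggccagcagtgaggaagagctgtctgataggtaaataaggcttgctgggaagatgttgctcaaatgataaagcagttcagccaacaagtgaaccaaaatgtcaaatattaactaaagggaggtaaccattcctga
Fgg: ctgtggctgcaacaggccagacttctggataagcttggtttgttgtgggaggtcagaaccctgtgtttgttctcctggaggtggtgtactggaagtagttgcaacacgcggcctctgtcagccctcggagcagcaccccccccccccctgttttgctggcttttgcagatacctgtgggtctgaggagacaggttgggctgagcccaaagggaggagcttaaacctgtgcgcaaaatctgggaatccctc
Among the 9 members with a RefSeq promoter entry, CAAAGTCCA (an HNF4 arm, in 0.384% of 32851 promoter entries of that length), TGTTTAC (a forkhead motif, 3.17%) and TATAAA (12.4%) were found in none of the 9, and CCAAT (33.8%) only in *F7*. The motifs were searched on both strands, and a match or its absence describes the letters alone.

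The first comparison asked how the levels of clotting factor RNA differ between the fractions of control embryos. TPM give levels within a library and not the amount of the liver's RNA in a fraction. All members had lower mean levels in LSECs, at 0.17 (*F5*) to 0.35 (*F7*) times the non-EC mean TPM. Of the 10 members, 9 were DEGs with lower values in LSECs, against 13.3% of the 13775 genes tested, and the groups did not overlap for these 9 (40.2% of genes did not overlap in that direction). A DEG has a log2 fold change over 1 in size and an adjusted p under 0.05 in limma (two-sided, Benjamini-Hochberg adjusted over all genes), computed on log2(TPM + 1), a scale that understates the change of low genes. The members' median log2 fold change was -1.76, beside -1.71 for the hepatoblast markers and -0.09 for all genes. Mitochondrial transcripts made up 20.6% to 24.6% of control LSEC libraries and 6.17% to 7.69% of control non-EC libraries. With them left out of the TPM, the members' log2 fold changes were -2.10 (*F5*) to -0.78 (*F9*).

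**Figure D1:**
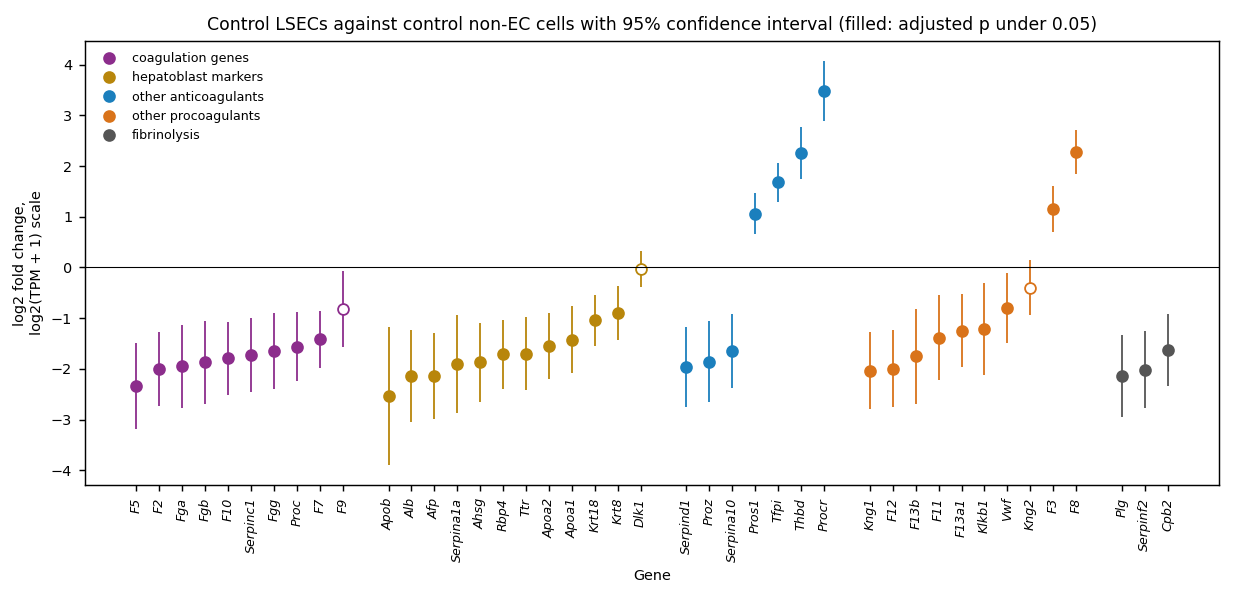
Each point is a gene, and the vertical axis gives its log2 fold change between control LSECs and control non-EC cells (n = 3 each) with the 95% confidence interval as a line. Filled points have an adjusted p under 0.05. The coagulation genes lie between -2.34 and -0.82, within the span of the hepatoblast markers, while *Procr*, *Thbd*, *Tfpi*, *Pros1*, *F8* and *F3* lie above 0.

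*F5* had the largest difference between the fractions. Its levels were 7.38, 8.04 and 5.58 TPM in control LSECs and 45.4, 25.8 and 51.0 TPM in control non-EC cells. The log2 fold change was -2.34 ± 0.41 (SE, n = 3 per group, adjusted p = 3.66e-05 by limma). Prothrombin followed, with 38.2, 57.7 and 33.0 TPM in LSECs against 172, 161 and 176 TPM in non-EC cells. Its log2 fold change was -2.00 ± 0.35 (adjusted p = 4.18e-05 by limma). *F7*, whose protein starts clotting with tissue factor, differed least among the 9, with 7.13, 8.72 and 5.71 TPM in LSECs and 20.6, 18.7 and 22.9 TPM in non-EC cells. That is a log2 fold change of -1.42 ± 0.27 (adjusted p = 0.000111 by limma). For the fibrinogen chains the log2 fold changes were -1.94 (*Fga*), -1.87 (*Fgb*) and -1.65 (*Fgg*), for *F10* -1.79, and for the inhibitors -1.73 (*Serpinc1*) and -1.56 (*Proc*).

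*F9*, the factor missing in haemophilia B, had the lowest level of the members. Control LSECs had 0.18, 0.72 and 0.26 TPM and control non-EC cells 1.94, 0.68 and 1.82 TPM, with overlap. Its log2 fold change of -0.82 ± 0.36 gave an adjusted p of 0.0529 by limma, and 0.0259 when same-numbered LSEC and non-EC libraries were treated as pairs. Without 1 library at a time, the adjusted p of *F9* ranged from 0.0233 to 0.161. Over all 13 alternatives its log2 fold change ranged from -1.74 to 0.76 and its adjusted p by limma from 0.000690 to 0.161. *F9* was a DEG in 3 of them.

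The order of the members' levels was similar in both fractions. In control non-EC cells the means were 248 ± 19 TPM (SD, n = 3) for *Fga*, 233 ± 32 TPM for *Fgb* and 199.9 ± 14.6 TPM for *Fgg*, followed by *F2* at 169.7 ± 7.6 TPM and *F10* at 131 ± 17 TPM. *Proc* (53.1 ± 1.1 TPM), *Serpinc1* (50.4 ± 3.4 TPM), *F5* (40.7 ± 13.2 TPM), *F7* (20.7 ± 2.1 TPM) and *F9* (1.48 ± 0.69 TPM) were lower. The ranges of neighbours in this order overlapped between *Fga* and *Fgb*, *Fgb* and *Fgg*, *Proc* and *Serpinc1*, and *Serpinc1* and *F5*, and did not overlap between the others. In control LSECs the order differed only in that *Fgg* stood before *Fgb* and *F7* before *F5*, and the means of both of these pairs differed by less than their SD. The 3 fibrinogen chains together made up 55.3% to 63.2% of the members' TPM in the non-EC libraries and 56.5% to 63.6% in the LSEC libraries.

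*F7* (chr8:13076002-13085809) and *F10* (chr8:13087293-13106676) are neighbours as well, 1483 bases apart on the forward strand. The other members lie apart, *F2* at chr2:91455662-91466807 and *Proc* at chr18:32256169-32272624 on the reverse strand, *F5* at chr1:163979289-164047846, *Serpinc1* at chr1:160806146-160833433 and *F9* at chrX:59044824-59076119 on the forward strand.

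The chains kept near-equal shares of the fibrinogen transcripts. Over the 12 non-EC libraries *Fga* made up 34.3% to 38.8% of their sum, *Fgb* 29.4% to 36.0% and *Fgg* 28.6% to 32.7%. Over the 12 LSEC libraries the shares were 31.4% to 38.3%, 27.5% to 35.6% and 29.7% to 34.8%. *Brg1-ECko* replicate 1 is among them, with 462 TPM of *Fga* against 46.2 to 137 TPM in the other 11 LSEC libraries.

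**Figure D2:**
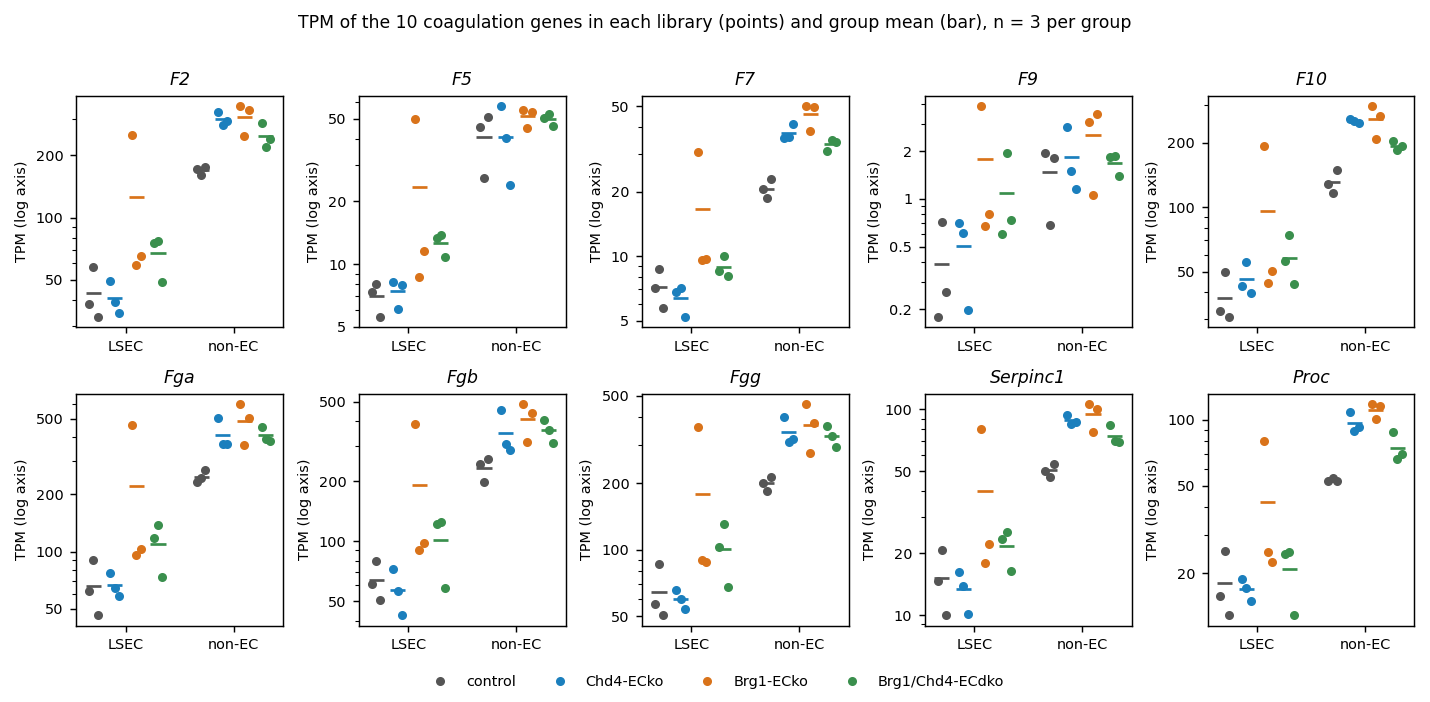
Each panel shows TPM on a log axis for 1 gene, with a point for every library (replicates 1 to 3 from left to right) and a bar for the group mean (n = 3), by fraction and genotype. In non-EC cells all mutant libraries lie above all control libraries for 8 genes but not for *F5* and *F9*. In LSECs, *Brg1-ECko* replicate 1 is the highest library for each gene.

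In non-EC cells of *Chd4-ECko* livers most members were higher than in control. An adjusted p under 0.05 was reached by 7 of 10 members, all higher (6.17% of the 12223 genes tested passed in that direction), and 8 did not overlap with control (15.8% of genes). None was a DEG, since no fold change exceeded the threshold of 1 (0.434% of genes were DEGs with higher values). The unadjusted p was under 0.05 for 8 (33.9% of genes). The members' median log2 fold change was 0.78, beside 0.01 for all genes. In bulk RNA, more cells of a type and more RNA per cell cannot be told apart.

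Among the proteases, *F10* was highest relative to control. The mutant libraries had 258, 253 and 247 TPM and the controls 128, 116 and 149 TPM. All 3 mutant libraries lay above all controls, with a log2 fold change of 0.95 ± 0.13 (SE, n = 3, adjusted p = 0.00425 by limma). Its neighbour *F7* measured 35.6, 35.8 and 41.6 TPM against 20.6, 18.7 and 22.9 TPM (0.84 ± 0.12, adjusted p = 0.00600 by limma). Prothrombin measured 325, 280.4 and 294 TPM against 172, 161 and 176 TPM (0.81 ± 0.13, adjusted p = 0.00805 by limma).

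Both inhibitors rose. Protein C measured 109, 88.7 and 93.2 TPM against 52.6, 54.4 and 52.4 TPM (0.85 ± 0.12, adjusted p = 0.00495 by limma), and antithrombin 94.1, 84.4 and 86.4 TPM against 50.2, 47.1 and 53.9 TPM (0.80 ± 0.12, adjusted p = 0.00665 by limma). Of the fibrinogen chains, *Fgg* (0.77 ± 0.17, adjusted p = 0.0228) and *Fga* (0.72 ± 0.17, adjusted p = 0.0318 by limma) rose. *Fgb* measured 455, 306 and 286 TPM against 244, 198 and 258 TPM, above all controls in each library, and its log2 fold change of 0.56 ± 0.20 did not pass (adjusted p = 0.0863 by limma). The *Chd4-ECko* replicate 1 library was the highest of the 3 for all fibrinogen chains.

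*F5* and *F9* did not follow the others. Factor V measured 57.4, 40.5 and 23.9 TPM in *Chd4-ECko* and 45.4, 25.8 and 51.0 TPM in control, with a log2 fold change of -0.03 (95% confidence interval -0.67 to 0.61). Factor IX measured 2.85, 1.5 and 1.15 TPM against 1.94, 0.68 and 1.82 TPM (0.19, interval -0.52 to 0.90). The groups overlapped for both.

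In *Brg1-ECko* non-EC cells the same 8 members did not overlap with control, and all 8 passed. Higher levels at an adjusted p under 0.05 were found for 8 of 10 members (8.91% of genes), and *F7* and *Proc* were DEGs (1.19% of genes were DEGs with higher values). A share of 21.9% of genes lay wholly above control. The members' median log2 fold change was 0.87, beside 0.02 for all genes.

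*F7* measured 50.2, 38.5 and 49.7 TPM, about 2.23 times the control mean. Its log2 fold change was 1.11 ± 0.12 (SE, n = 3, adjusted p = 0.00128 by limma). *Proc* measured 118, 100.5 and 116 TPM, 2.10 times the control mean, with 1.05 ± 0.12 (adjusted p = 0.00128 by limma). Both genes were well separated from controls, which did not exceed 22.9 TPM for *F7* and 54.4 TPM for *Proc*.

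The other 6 rose by less than the DEG threshold. *F10* measured 296, 209 and 267 TPM (log2 fold change 0.96 ± 0.13, adjusted p = 0.00154 by limma), and *Fga* 597, 366 and 503 TPM (0.95 ± 0.17, adjusted p = 0.00651 by limma). *Serpinc1* (0.88), *Fgg* (0.85), *F2* (0.84) and *Fgb* (0.80) had adjusted p-values of 0.00191 to 0.0259 by limma. Replicate 2 was the lowest of the 3 *Brg1-ECko* libraries for each of these 8 genes. When it was left out, 6 members were DEGs instead of 2 (2.43% of genes), and when control replicate 3 was left out, 4 were (1.59%). *F5* (55.1, 45.0 and 53.5 TPM, 0.37 ± 0.29) and *F9* (3.09, 1.07 and 3.45 TPM, 0.48 ± 0.32) overlapped with control and did not pass (adjusted p = 0.414 and 0.354 by limma).

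In *Brg1/Chd4-ECdko* non-EC cells the log2 fold changes of the members were between 0.16 (*F9*) and 0.72 (*Fga*), with a median of 0.56. Only *F7* passed (1 of 10, against 0.565% of genes with an adjusted p under 0.05 and a higher level), with 31.0, 34.8 and 34.0 TPM and a log2 fold change of 0.66 ± 0.12 (SE, n = 3, adjusted p = 0.0466 by limma). It did not pass when any 1 of the 6 libraries was left out (adjusted p = 0.0906 to 0.192). None was a DEG (0.115% of genes were, in that direction). The unadjusted p was under 0.05 for 8 members (11.7% of genes), and 8 did not overlap with control (16% of genes), the same 8 as in the single mutants.

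*Fga* (455, 391 and 384 TPM, 0.72 ± 0.17), *Fgg* (0.71 ± 0.17) and *Fgb* (0.62 ± 0.20) had log2 fold changes at least as large as those of *F10* (0.56), *Serpinc1* (0.55), *F2* (0.54) and *Proc* (0.47). Their adjusted p-values were 0.0834 to 0.193 for the fibrinogen chains and 0.0645 to 0.0970 for the others, by limma. *F5* (0.33) and *F9* (0.16) overlapped with control.

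**Figure D3:**
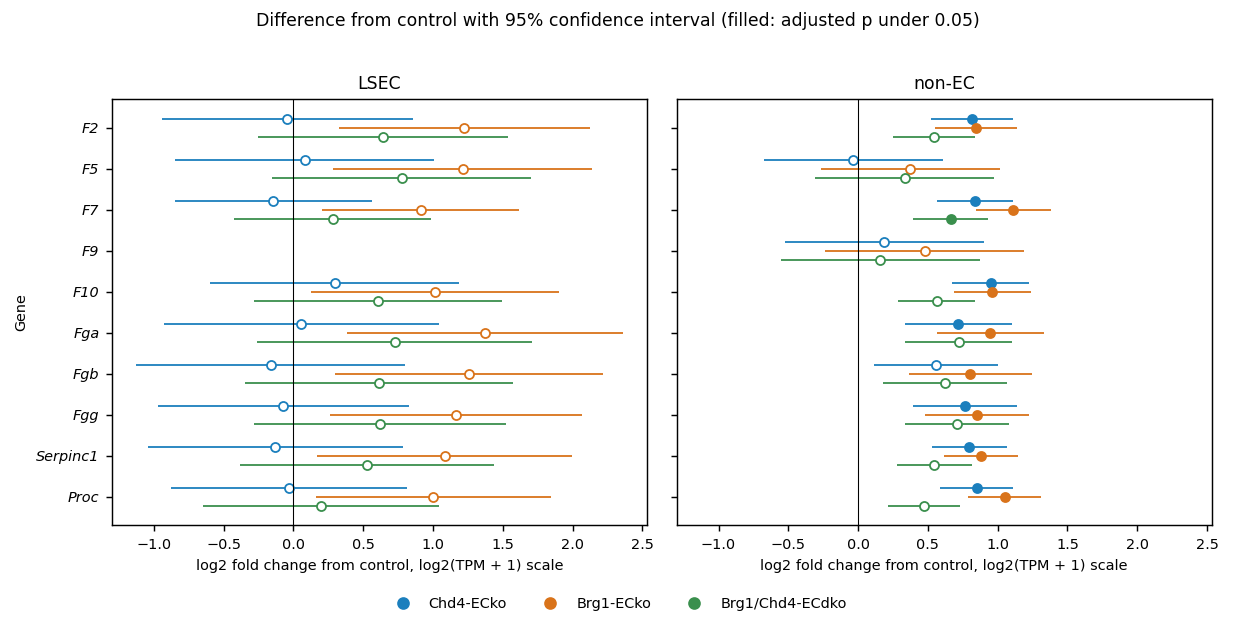
Log2 fold changes from control on the log2(TPM + 1) scale with 95% confidence intervals, for each gene and mutant, in LSECs (left) and non-EC cells (right), n = 3 per group. Filled points have an adjusted p under 0.05. They occur only among non-EC cells, for 7 genes with *Chd4* deleted, 8 with *Brg1* deleted and 1 in the double mutant, and *F9* was not tested in LSECs.

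The double mutant was also compared with *Chd4-ECko* directly, to see what the added loss of *Brg1* changed. In non-EC cells no member passed limma's test (0% of genes did), and the unadjusted p was under 0.05 for *F10* and *Proc* (21.8% of genes). Both were lower in the double mutant. *F10* had 203, 184 and 192 TPM against 258, 253 and 247 TPM in *Chd4-ECko* (log2 fold change -0.39, 95% interval -0.66 to -0.11), and *Proc* 88.1, 66.2 and 69.6 TPM against 109, 88.7 and 93.2 TPM (-0.38, interval -0.64 to -0.12). The adjusted p was 0.217 for both by limma. *F7* and *Serpinc1* were likewise lower without overlap (4 members in all, against 7.12% of genes), whereas the fibrinogen chains overlapped (log2 fold changes of 0.00, 0.07 and -0.06 for *Fga*, *Fgb* and *Fgg*).

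The hepatoblast markers moved with the members. In non-EC cells their summed level was 18337 to 20481 TPM in the controls, against 28055 to 37582 TPM with *Chd4* deleted, 27705 to 39852 TPM with *Brg1* deleted and 23561 to 31357 TPM in the double mutant, and no mutant group overlapped with control. Higher levels at an adjusted p under 0.05 were found for 10, 11 and 1 of the 12 markers, with median log2 fold changes of 0.84, 0.95 and 0.46, beside 7, 8 and 1 of the 10 coagulation genes. The erythroid markers summed to 2098 to 7510 TPM in the controls and, in the same order of mutants, to 2430 to 7726, 1451 to 2775 and 2259 to 2991 TPM, with 1, 2 and 0 of 8 lower at an adjusted p under 0.05. The stellate markers summed to 20.8 to 47.4 TPM in the controls and, in the same order, to 38.0 to 78.8, 34.9 to 58.2 and 33.0 to 48.3 TPM, with 1, 0 and 0 of 5 tested higher at an adjusted p under 0.05. The share of mitochondrial transcripts was 6.17% to 7.69% in the controls, 2.33% to 7.37% and 3.04% to 5.51% in the single mutants, the latter below all controls, and 6.43% to 6.65% in the double mutant. With mitochondrial genes left out of the TPM, 6, 8 and 0 coagulation genes passed (4.47%, 7.66% and 0.219% of genes, with higher levels). The part of these cell types in the results was not tested.

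The members together amounted to 5.56% to 7.25% of the hepatoblast marker sum in the 12 non-EC libraries and to 5.66% to 7.47% in the 12 LSEC libraries. The LSEC sum of the members was 28.1% of the non-EC sum in control livers and, in that order of mutants, 16.4%, 43.7% and 28.3%. Without *Brg1-ECko* LSEC replicate 1 the value of 43.7% became 21.3%, below that of control. For the hepatoblast markers the same quantity was 27.8%, 15.4%, 42.7% (20.9% without that library) and 27.7%. When the log2 values of each library were centred on the mean of the hepatoblast markers, an alternative chosen after seeing the data, the members' median log2 fold changes in non-EC cells were 0.07, -0.05 and 0.08 in the 3 mutants, and none was a DEG in any of them. Between the fractions of control livers the median was -0.18 on that scale, and none of the 10 was a DEG. The members went both ways there, from -0.76 for *F5* (adjusted p = 0.0441 by limma, the only one to pass) to 0.76 for *F9* (adjusted p = 0.0646).

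On that scale *F5* was the lowest member between the control fractions and in non-EC cells of both single mutants. In double mutant non-EC cells *F9* was lower (-0.32, against -0.15 for *F5*). In double mutant LSECs *F5* was the highest of the tested members (0.36). Relative to the hepatoblast markers its log2 fold change in *Chd4-ECko* non-EC cells was -0.74 ± 0.25 (adjusted p = 0.0179 by limma), the only member to pass, where centring also put 7838 of 12223 genes past the threshold. The ratio of *F5* to the geometric mean of the markers was 7.78%, 4.56% and 8.07% in control and 4.96%, 4.46% and 2.75% in *Chd4-ECko* non-EC cells, so that the groups overlapped. For antithrombin the corresponding ratio stayed between 8.14% and 9.94% in all 12 non-EC libraries.

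**Figure D4:**
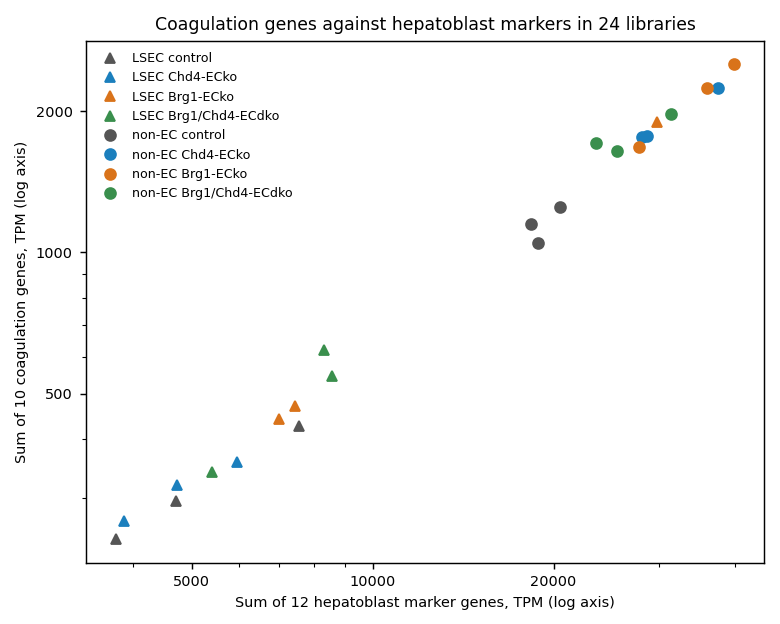
Each of the 24 points is a library, with the summed TPM of the 12 hepatoblast markers on the horizontal and of the 10 coagulation genes on the vertical axis, both log axes. The libraries lie along a single band, with *Brg1-ECko* LSEC replicate 1 (1895 TPM of coagulation genes) among the non-EC libraries.

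In LSECs no member passed in any mutant in the model of all 12 libraries. In *Chd4-ECko* LSECs 0 of 9 tested members passed limma's test (0.707% of the 13444 genes tested did), and 0 had an unadjusted p under 0.05 (6.49% of genes). Their log2 fold changes lay between -0.16 (*Fgb*) and 0.29 (*F10*), with a median of -0.04, and all groups overlapped. Prothrombin, for example, measured 49.3, 39.04 and 34.4 TPM against 38.2, 57.7 and 33.0 TPM in control (-0.04, 95% interval -0.94 to 0.85). The upper ends of the 95% intervals lay between 0.56 (*F7*) and 1.18 (*F10*). *F9* was not tested, since it reached 1 TPM in only 2 LSEC libraries, and had 0.71, 0.61 and 0.20 TPM in *Chd4-ECko*.

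In *Brg1-ECko* LSECs 0 of 9 members passed (0.0223% of genes did), although all 9 had an unadjusted p under 0.05 (9.68% of genes). *Fga* had the largest log2 fold change among them, 1.37 ± 0.46 (SE, n = 3, adjusted p = 0.407 by limma), with 462, 96.1 and 104 TPM against 61.7, 90.6 and 46.2 TPM. For 6 members the groups did not overlap (10.9% of genes in that direction). The hepatoblast markers summed to 6979 to 29755 TPM here, with a median log2 fold change of 1.05, and centred on them the members' median was 0.11. Replicate 1 was the highest LSEC library for every member. Its level was 1.98 (*F9*) to 3.63 (*F5*) times that of the next highest LSEC library of any genotype. Without it, the members' median log2 fold change fell from 1.16 to 0.48, 3 of 9 had an unadjusted p under 0.05 (4.69% of genes), and the adjusted p-values were 0.913 to 1.00 by limma. The mean of the other 2 *Brg1-ECko* libraries was 1.25 (*F10*) to 1.51 (*Fga*) times the control mean among these 9.

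In *Brg1/Chd4-ECdko* LSECs the members lay 0.20 (*Proc*) to 0.77 (*F5*) above control on the log2 scale, with a median of 0.61 beside 0.16 for all genes. The hepatoblast markers summed to 5410 to 8559 TPM, against 3750 to 7561 TPM in control, with a median log2 fold change of 0.37. Centred on these markers, the members' median was 0.19. Their part in the difference was not tested. No member of 9 passed (0.87% of genes did), and 0 had an unadjusted p under 0.05 by limma (12.1% of genes). *F5* alone did not overlap with control, at 13.4, 13.8 and 10.8 TPM against 7.38, 8.04 and 5.58 TPM (0.77 ± 0.43, adjusted p = 0.472 by limma), where 20.8% of genes lay wholly above control. With only the 6 libraries of these groups in the model, *F5* passed (SE 0.18, adjusted p = 0.0355 by limma). Against *Chd4-ECko* LSECs, the double mutant's members were higher by 0.23 (*Proc*) to 0.78 (*Fgb*). Again 0 of 9 passed (0.0372% of genes did), with 0 at an unadjusted p under 0.05 by limma (10.4%), and 4 did not overlap (*F5*, *F7*, *Fgg* and *Serpinc1*, against 13.6% of genes).

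Whether the effect of a mutation differed between the fractions was tested with interaction terms. No member passed limma's test for *Chd4-ECko* (1.02% of 13775 genes did), for *Brg1-ECko* (1.04%) or for the double mutant (0.0581%). The unadjusted p was under 0.05 for 1, 0 and 0 of the 10, against 19.1%, 17.9% and 7.57% of genes. With same-numbered LSEC and non-EC libraries treated as pairs, it was under 0.05 for 4, 0 and 0 (22.7%, 20.7% and 9.19% of genes), and none passed (lowest adjusted p = 0.141, for *F7* in *Chd4-ECko*). Without the pairs, that 1 was *F7* in *Chd4-ECko*, with a log2 difference of effects of -0.98 ± 0.39 (adjusted p = 0.194 by limma), where LSECs had -0.15 and non-EC cells 0.84. Members passed in non-EC cells and not in LSECs, therefore, but a difference between the fractions was not shown. For *Brg1-ECko* the differences lay between -0.20 (*F7*) and 0.84 (*F5*) with a median of 0.34. Without LSEC replicate 1 they lay between -0.72 (*F7*) and 0.10 (*F5*) with a median of -0.33, so that the median changed sign, and 0 of 10 passed limma's test (2 had an unadjusted p under 0.05, against 14.3% of genes). The change from *Chd4-ECko* to the double mutant was compared between the fractions in a test added after seeing the data. No member passed it (0.0363% of genes did), with differences of 0.33 (*F5*) to 0.96 (*F2*).

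Most members varied together between libraries of the same group. The correlation of deviations from the group means over the 12 LSEC libraries was 0.82 to 0.99 for all pairs. Without *Brg1-ECko* replicate 1 it was 0.30 to 0.97 over the other 11, and 0.90 to 0.97 between the fibrinogen chains. Over the 12 non-EC libraries it was 0.91 to 0.96 between the fibrinogen chains and had medians of 0.52 for *F5* and 0.43 for *F7* with the other members, against 0.70 to 0.86 for the rest. The lowest pairs there were *F7* with *Proc* (-0.016), *F5* with *F7* (0.12) and *F5* with *Proc* (0.27). These are descriptions over libraries that share marker content and composition. Across all 12 libraries of a fraction, the 5 genes other than members whose log2 profile was most like the median of the members' centred profiles were *Ambp*, *Vtn*, *Afp*, *Serpinf2* and *Plg* in LSECs (r = 0.994 to 0.997, and 0.978 to 0.996 without *Brg1-ECko* replicate 1) and *Aldh1b1*, *Mmd2*, *Hip1r*, *Ambp* and *Cfb* in non-EC cells (r = 0.985 to 0.989). Without that library *C1s1* (r = 0.981) came before *Serpinf2*, which fell outside the first 5.

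Other genes of the clotting system fell into those lower and those higher in LSECs. In control livers, 6 of 10 further procoagulant genes were DEGs with lower values in LSECs, among them *F12* (9.92 against 40.9 TPM, log2 fold change -1.99) and *Kng1* (-2.04), which start the contact pathway, and *F13a1* (-1.24), whose product cross-links fibrin. *F8* (2.28) and *F3*, tissue factor (1.16), were DEGs with higher values. Of 7 further anticoagulant genes tested, *Procr* (EPCR, 3.48), *Thbd* (thrombomodulin, 2.26), *Tfpi* (1.68) and *Pros1* (protein S, 1.06) were DEGs with higher values in LSECs, and the serpins *Serpind1* and *Serpina10* with *Proz* were lower. The protein C receptors thus had higher TPM in LSECs and *Proc* higher TPM in non-EC cells. All 3 fibrinolysis genes tested (*Plg*, *Serpinf2* and *Cpb2*) were lower in LSECs.

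In mutant non-EC cells, *F12* and *Kng1* also rose with *Chd4* deleted (log2 fold changes 0.83 and 0.70, adjusted p = 0.00734 and 0.0178 by limma) and with *Brg1* deleted (0.94 and 0.93, adjusted p = 0.00201 and 0.00281). They were 2 of 9 procoagulant genes tested, and no further one passed there. Of 7 anticoagulant genes tested, *Proz*, *Serpina10* and *Serpind1* rose in both mutants, and *Serpina10*, the inhibitor that acts with protein Z, was a DEG in *Brg1-ECko* (1.06, adjusted p = 0.00338 by limma). Of 3 fibrinolysis genes, *Plg* and *Serpinf2* rose in both and *Cpb2* in *Brg1-ECko* (0.75, adjusted p = 0.0208 by limma), and *Serpinf2*, the plasmin inhibitor, was a DEG in *Brg1-ECko* (1.04, adjusted p = 0.00133 by limma). No gene of these lists passed in the double mutant, and *Tfpi* was the only one to fall, from 25.0 ± 2.7 to 15.4 ± 5.5 TPM in *Chd4-ECko* (SD, n = 3, adjusted p = 0.0499 by limma). Of the 5 genes of vitamin K use and factor secretion, *Ggcx* (0.70, the carboxylase of the vitamin K-dependent factors), *Mcfd2* (0.48, a carrier of factors V and VIII) and *Vkorc1* (0.46) rose in *Brg1-ECko*, named after their values were seen, and none passed in the other mutants.

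In LSECs the only gene of the procoagulant list to pass in a mutant was *F13a1* in *Chd4-ECko*. It rose from 9.29 ± 0.64 to 44.5 ± 27.0 TPM (SD, n = 3, log2 fold change 1.94 ± 0.37, adjusted p = 0.0343 by limma), and its effect differed between LSECs and non-EC cells (difference 2.22 ± 0.48, adjusted p = 0.0298 by limma). The macrophage markers had a median log2 fold change of 0.96 in the same comparison, where 0 of 7 passed. Their sum was 472 to 593 TPM in control and 640 to 1006 TPM in *Chd4-ECko* LSECs. The megakaryocyte markers summed to 280 to 300 TPM in control and to 163, 425 and 455 TPM in *Chd4-ECko* LSECs. The part of either cell type in the *F13a1* result was not tested.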

How the data were processed

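TPM were measured by RNA sequencing in 12 LSEC and 12 non-EC libraries of E12.5 livers, with 3 libraries per fraction and genotype. The authors selected poly-A RNA and, in CLC Genomics Workbench, removed runs of guanines and aligned to GRCm39, also given as mm39 in the submitters' processing notes. They deposited 1 TPM value per gene and library. TPM sum to the same total in each library, so depth is unknown and no counting interval can be given, and expression of abundant genes lowers the rest. The 8 deposited group mean columns were not used, and columns outside the design numbered 0.

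A gene entered a model when 3 or more of its libraries reached 1 TPM (13444 in LSECs, 12223 in non-EC cells, 13775 in all 24). limma 3.58.1 in R 4.3.3 was fitted to log2(TPM + 1), with a mean per group, moderation with a trend and two-sided p-values adjusted by the Benjamini-Hochberg method over all genes. The thresholds of DEGs are those of the study. Figures were drawn with python 3.11.15 and matplotlib 3.10.9. In simulated data, the *Chd4-ECko* LSEC comparison recovered 99.5% of 200 genes changed 4-fold among 13409 and the non-EC comparison 96.5% of 200 among 12192. Smaller changes were not simulated.

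The members and lists were chosen with earlier results of these data known. All 10 members are named. Other clotting genes and markers come from lists, and are named where they are DEGs or a result turns on them, or where the text says otherwise. Each point is 1 embryo. Within a genotype, the LSEC and non-EC libraries with the same number deviated together (correlation 0.124 to 0.411 in 12 of 12 pairs). For the 24 pairs with different numbers the correlation was -0.343 to 0.153. The labels do not say whether same-numbered libraries came from the same embryo, and these were treated as pairs only in an alternative. The alternatives were a pseudocount of 0.1 TPM, no filter, a mean of at least 5 TPM, TPM without mitochondrial genes, quantile normalization, no trend, the replicate block, the compared groups alone, no fold change threshold and each library left out. Centring on hepatoblast markers, and the test of the double mutant against *Chd4-ECko* between fractions, were added after seeing the data. A list of liver transcription factors is not reported here.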

Additional observations from a re-analysis of the deposited data

Results flagged for a closer look

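*F7* and *Serpinc1* went in opposite directions in the 2 fractions when *Brg1/Chd4-ECdko* was compared with *Chd4-ECko*: all 3 double mutant libraries were above all *Chd4-ECko* libraries in LSECs and below all of them in non-EC cells. *F7* measured 8.54, 9.97 and 8.09 TPM against 6.77, 7.12 and 5.21 TPM in LSECs, and 31.0, 34.8 and 34.0 TPM against 35.6, 35.8 and 41.6 TPM in non-EC cells. The difference of the effects was 0.60 ± 0.39 (SE, log2 scale, adjusted p = 0.781 by limma) for *F7* and 0.91 ± 0.50 (adjusted p = 0.781 by limma) for *Serpinc1*. Neither passed, nor did any other member (0.0363% of genes did). The hepatoblast markers moved the same way, with sums of 5410 to 8559 TPM against 3855 to 5957 TPM in LSECs and 23561 to 31357 TPM against 28055 to 37582 TPM in non-EC cells. Centred on these markers, the log2 fold changes were -0.13 in LSECs and 0.06 in non-EC cells for *F7*, both of the opposite sign, and 0.10 and -0.02 for *Serpinc1*.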

How the results depend on the processing

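As reported, counts of member DEGs, or of members passing an interaction, were above 0 only in *Brg1-ECko* non-EC cells and between the control fractions. Elsewhere a setting that kept the count repeated a count of 0. Across all comparisons, the counts kept their side of the threshold, within 1.5 times, in 216 of the 224 settings tried. The exceptions were these. Without the fold change threshold, 7, 8 and 1 members counted in non-EC cells of *Chd4-ECko*, *Brg1-ECko* and double mutant livers in place of 0, 2 and 0. With a library left out, 0.23% to 0.582% of genes were DEGs with higher values in *Chd4-ECko* and 0.607% to 2.43% in *Brg1-ECko* non-EC cells. The members' count there was 0 to 1 in *Chd4-ECko* (1 without control replicate 3) and 2 to 6 in *Brg1-ECko*. Centred on the hepatoblast markers, it was 0 in *Brg1-ECko* non-EC cells and 0 between the control fractions, where *F7* (0.16), *Proc* (0.015) and *F9* (0.76, from -0.82) changed sign. That centring moves the median of all genes from -0.09 to 1.49 between the fractions and to -0.70, -0.89 and -0.46 in the 3 non-EC comparisons, and removing mitochondrial genes moves the former to 0.16.

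Members with an adjusted p under 0.05 numbered 5 to 7 in *Chd4-ECko* and 7 to 8 in *Brg1-ECko* non-EC cells with a library left out, and 0 in *Brg1/Chd4-ECdko*. In the same fits 2.46% to 15.5%, 4.13% to 8.46% and 0% to 0.115% of genes passed with higher levels. With the replicate block within a fraction, 8, 8 and 7 members passed in those 3 comparisons. With this block 7.53%, 10.2% and 2.38% of all genes passed with higher levels (6.17%, 8.91% and 0.565% without the block). By their labels, same-numbered libraries of different genotypes share only a number. Among non-EC libraries of different genotypes, 9 of 18 correlations of same-numbered libraries were over 0.1 (mean 0.12). Of those with different numbers, 8 of 36 were (mean -0.06). *F7* in the double mutant did not pass without the filter, without mitochondrial genes or without the trend, and with the compared groups alone *F7*, *Fga* and *Fgg* passed there (3 members, 0.445% of genes) and *F5* in double mutant LSECs. The block of LSEC and non-EC pairs changed no other call than that of *F9*. Depth, which is unknown, limits *F9* most, at 0.18 to 3.86 TPM.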

Other observations

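*Apob*, the apolipoprotein B gene, is 1 of the hepatoblast markers. Within groups of non-EC cells, the correlation of deviations with *Apob* was 0.88 for *F5* and 0.87 for *F9* over 12 libraries, a pattern chosen after its values were seen and given as a description.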
